A study of Mus musculus with 6 samples.

Results

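The 9 genes described here encode the granins and several membrane and associated proteins of the dense core granule, the organelle in which endocrine cells store peptide hormones. They were taken as every non-control probe annotated to Chga, Chgb, Scg2, Scg3, Vgf, Ptprn, Ptprn2, Ica1 or Resp18. No measured value was used to choose them, but the set was listed with earlier results of these data known. The rule gave 12 probes and 9 of the 25776 genes and unnamed transcripts tested. All 12 probes were well above background on all 6 arrays, so that every gene entered the test. No value was missing or imputed for them.

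The samples were MIN6B1 cells, a mouse insulinoma line that still makes and secretes insulin and stands in for the pancreatic beta cell. In the control group the cells were transfected with siGFP, a small interfering RNA (siRNA) against green fluorescent protein, and in the other group with an siRNA directed at circHIPK3, a circular transcript of Hipk3. All cells were transfected with the same lipid reagent, kept in the same medium with fetal calf serum, penicillin, streptomycin and β-mercaptoethanol, and collected at 48 h. Each group held 3 samples, each on its own single-colour array. The labels do not say that replicates were separate cultures, and the p-values therefore reflect sample-to-sample spread that could be technical.

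Granins are acidic proteins that aggregate with calcium in the trans-Golgi network, help to form the granule core and are cut by prohormone convertases into secreted peptides. Secretogranin III tethers such aggregates to cholesterol-rich granule membrane. Ptprn and Ptprn2 encode related transmembrane proteins of the granule, with domains that resemble tyrosine phosphatases but have little activity on usual substrates, and both proteins are autoantigens in autoimmune diabetes. Ica1 encodes another islet autoantigen, a membrane-curving protein of the Golgi and immature granules. Resp18 encodes an endocrine-specific protein related to the lumenal part of the Ptprn protein.

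Promoter sequence was not used to choose the genes. The letters TGACGTCA, the full cyclic AMP response element, were searched in the 250 bases before the annotated start in RefSeq promoter windows (build GRCm38.p6), which hold 8 of the 9 genes, all but Vgf, in 10 windows. The motif reads the same on both strands. It was found in Scg2 from base -68 to -61 and in Chgb from base -72 to -65. These are 2 of the 10 windows, beside 1.55% of all 32851 windows. The core letters TGACG, which the full element contains on each strand, were found on either strand in Chga, Chgb, Scg2, Scg3, Ptprn and Ica1. These are 6 of the 8 genes and 6 of the 10 windows, beside 17.8% of all windows. The letters TTCAGCACC, part of the element bound by the neuronal gene repressor REST, were in 0.301% of windows and in none of these 10. A match is a description of letters and not a measured binding site. Matched letters are in capitals in the sequences below. The 100 bases before the start are shown for the 2 genes with the full element and 2 with core letters on the gene's strand. They lie at chr1:79440027-79440126 on the minus strand for Scg2, chr2:132781542-132781641 on the plus strand for Chgb, chr12:102554841-102554940 on the plus strand for Chga and chr9:75684057-75684156 on the minus strand for Scg3.
Scg2: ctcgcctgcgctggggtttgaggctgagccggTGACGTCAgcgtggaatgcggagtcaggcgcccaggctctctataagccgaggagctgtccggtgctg
Chgb: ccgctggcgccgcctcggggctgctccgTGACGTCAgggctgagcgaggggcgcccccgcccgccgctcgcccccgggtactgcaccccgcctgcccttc
Chga: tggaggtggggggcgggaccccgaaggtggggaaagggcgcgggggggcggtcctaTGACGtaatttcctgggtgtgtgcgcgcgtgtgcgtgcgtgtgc
Scg3: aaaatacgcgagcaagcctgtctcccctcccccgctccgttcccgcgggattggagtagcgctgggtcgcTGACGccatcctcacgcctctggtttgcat

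Array brightness, as the 75th percentile of processed signal, ran from 2939 to 3669 units, and 77.7% to 83.5% of probes per array were well above background. Slides were inferred from the scan times in the file headers, since slide barcodes were not used here. All siGFP arrays shared a scan with circHIPK3 siRNA replicate 1, and circHIPK3 siRNA replicates 2 and 3 shared another, in which array positions of the first scan recur. These are called the first and the second slide, and slide so inferred is partly confounded with group. Hipk3, the host gene, had log2 signals of 2.69, 2.96 and 2.78 in the siGFP arrays and 2.53, 2.89 and 2.51 in the circHIPK3 siRNA arrays. Its change of -0.17 ± 0.14 (SE, limma adjusted p = 0.50) checks neither the labels nor the circular RNA, since it is not known here where its probes lie on the transcript. All 10 markers of the beta cell were well above background on all 6 arrays. Their siGFP mean log2 signals ran from -3.80 for Slc2a2 to 6.95 for Ins2. So were 7 of 8 markers of acinar and duct cells, 5 of 8 of other islet cells and 5 of 8 of fibroblast, endothelial and immune cells. Being above background therefore does not tell these cell types apart. Glucagon (Gcg), the hormone of alpha cells, was also well above background on all 6 arrays, whereas Hhex, a transcription factor of delta cells, did not pass the filter.

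No granule gene of the 9 passed the threshold, and none was past an unadjusted p of 0.05. Over all genes limma called 303 at an adjusted p under 0.05, which was 1.18% of them (0.535% higher and 0.64% lower), and 21.1% had an unadjusted p under 0.05. The adjusted p-values of the 9 genes lay from 0.463 to 0.962. Their median log2 change was -0.021, beside a median of 0.085 over all genes, and the median size of the change, whatever its sign, was 0.081 beside 0.18. Estimates were below 0 for 6 genes and above 0 for 3, and 8 of the 9 changes were lower than the all-gene median. That count and the all-gene median both moved with the scaling. The median was 0.031 with quantile normalization, 0.021 with cyclic loess and -0.023 with the array median. Ptprn2 and Resp18 lay above it with quantile normalization (0.037 and 0.051) and cyclic loess (0.031 and 0.071). They lay below it with the array median (-0.070 and -0.060). Deviations from a gene's mean over the 6 arrays had medians, among the 6444 brightest genes, of 0.017, -0.039 and 0.042 in siGFP. In circHIPK3 siRNA they were 0.0078, 0.0027 and -0.040. The groups overlapped, so 0.085 may not be the background of bright genes, here or below. The 95% interval of the change lay within 1.5-fold in either direction for 8 of the 9 genes, all but Ptprn. Because the probes of different genes differ in brightness for the same amount of RNA, each gene is compared only with itself across arrays.

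**Figure D1:**
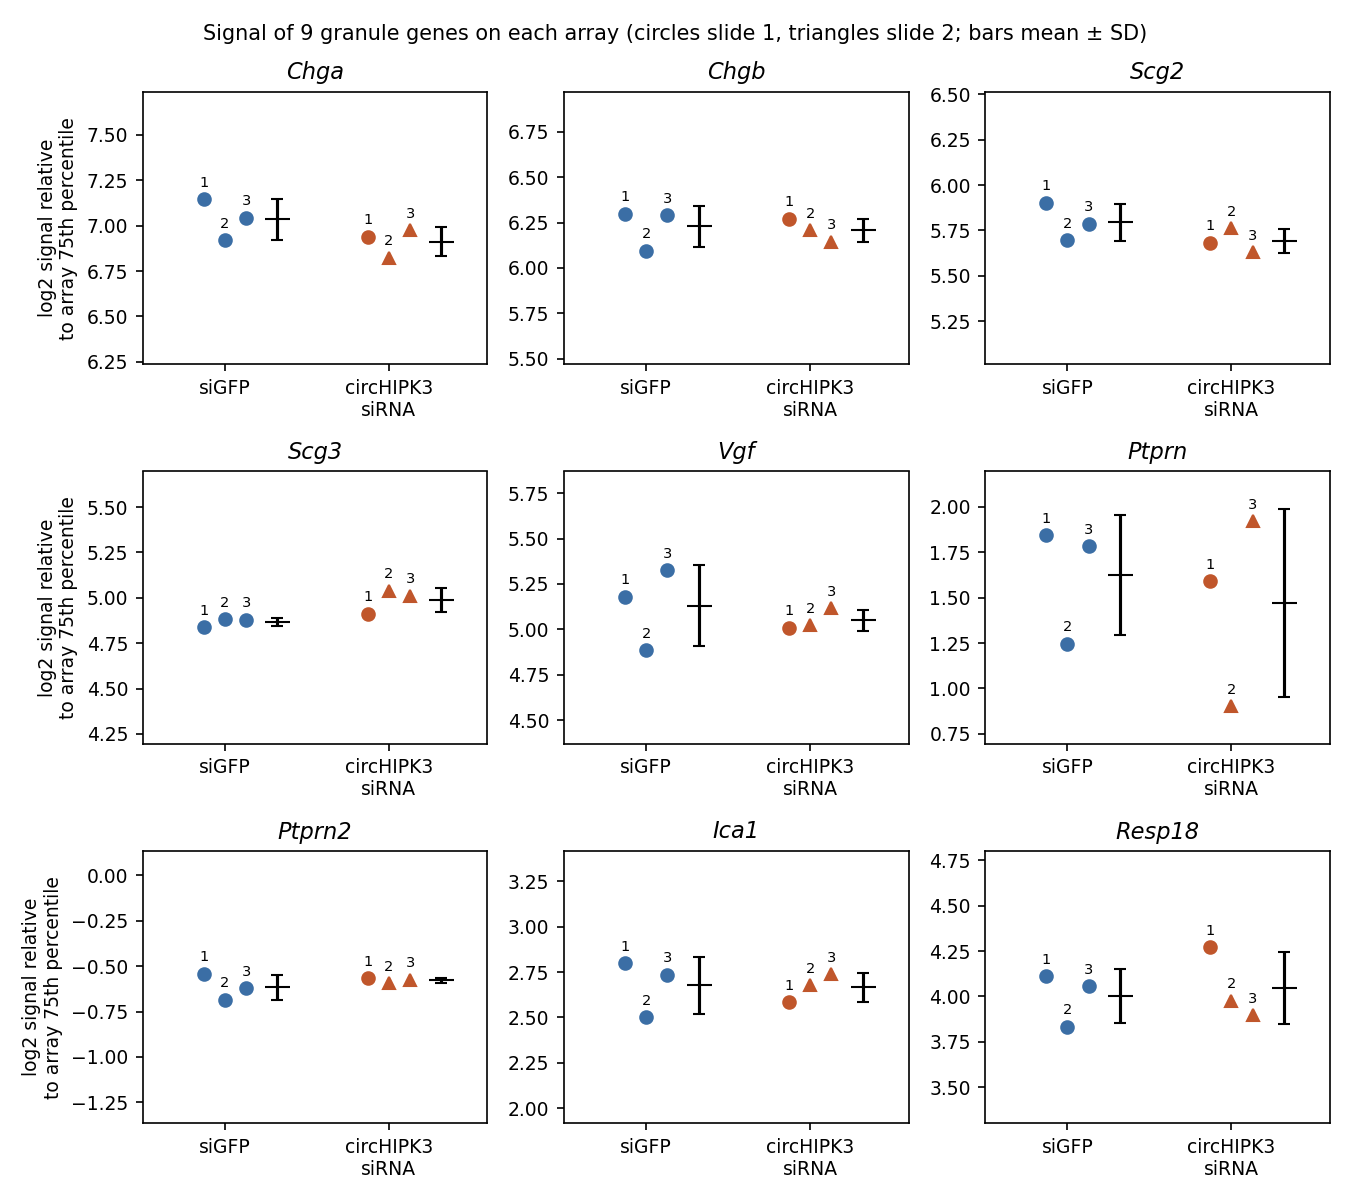
Log2 signal relative to the array's 75th percentile for each of the 9 genes (vertical axes, each spanning the same 1.5 log2 units) on each of the 3 arrays per group (points, numbered by replicate; circles for the first slide and triangles for the second), with the mean and SD beside them. The groups are apart only for Scg3, and Ptprn has the widest spread, from 0.90 to 1.92 in the circHIPK3 siRNA arrays.

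Chga encodes chromogranin A, the founding granin. Its log2 signals were 7.15, 6.92 and 7.04 in siGFP replicates 1 to 3 and 6.94, 6.82 and 6.97 in circHIPK3 siRNA replicates 1 to 3. The groups overlapped, since siGFP replicate 2 lay below 2 of the 3 circHIPK3 siRNA values. The estimated change was -0.12 ± 0.10 (SE, limma adjusted p = 0.511), with a 95% interval of 0.775-fold to 1.09-fold. The Chga probe gave the highest value of all probes on each of the 6 arrays, and no spot was flagged as saturated. Its unscaled intensity spanned 1.07-fold over the 6 arrays, from 415637 to 446402 units, while the 75th percentile that it was divided by spanned 1.25-fold. Whether so bright a probe still responds in proportion to RNA was not tested, so its narrow interval holds for the signal as scaled.

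Chgb encodes chromogranin B, the second of the classical granins and an abundant protein of the beta cell granule. Its log2 signals were 6.30, 6.10 and 6.29 in the siGFP arrays and 6.27, 6.21 and 6.14 in the circHIPK3 siRNA arrays. All 3 circHIPK3 siRNA values lay inside the siGFP range. The change was -0.021 ± 0.10 (SE, limma adjusted p = 0.925), with an interval of 0.834-fold to 1.16-fold. The probe was printed 10 times on each array, which shows how far spots of a single sample scatter. The SD over the 10 spots was 0.077 to 0.11 on 5 arrays and 0.22 on circHIPK3 siRNA replicate 3, where spots ran from 5.77 to 6.41. The spots share a sample and are no replicates of the group; the group means differed by less than the spot SD of any array.

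**Figure D2:**
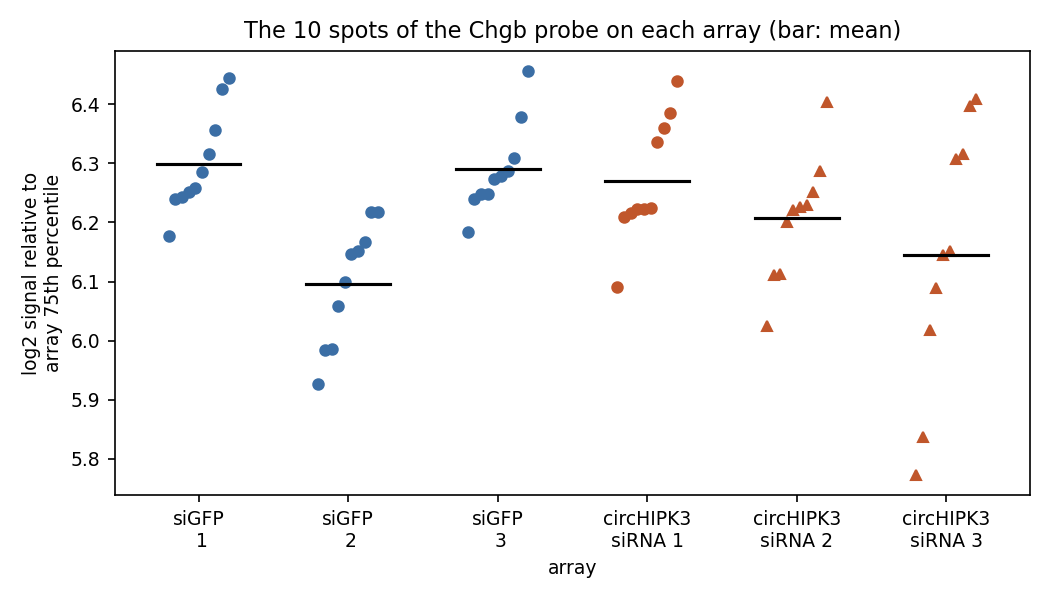
Log2 signal of each of the 10 spots of the Chgb probe (vertical axis, relative to the array's 75th percentile) on each of the 6 arrays (horizontal axis), spots in rising order, with a bar at the mean. The array means run from 6.10 to 6.30 and the spots of circHIPK3 siRNA replicate 3 scatter most, from 5.77 to 6.41.

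Scg2 encodes secretogranin II, the precursor of secretoneurin, with log2 signals of 5.90, 5.70 and 5.79 in the siGFP arrays and 5.68, 5.76 and 5.63 in the circHIPK3 siRNA arrays. Replicate 2 of circHIPK3 siRNA lay within the siGFP range and the other 2 below it by less than 0.1. The change was -0.10 ± 0.10 (SE, limma adjusted p = 0.574), with an interval of 0.791-fold to 1.097-fold.

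Scg3 was the single gene of the 9 whose groups did not overlap. Signals, in log2 units, were 4.84, 4.88 and 4.88 in the siGFP arrays and 4.91, 5.04 and 5.01 in the circHIPK3 siRNA arrays. All 3 circHIPK3 siRNA values were the higher, and a two-sided exact permutation test gave p = 0.10, the smallest that 3 against 3 arrays allow. Groups failed to overlap for 25.9% of all genes, with circHIPK3 siRNA the higher for 16.6% and the lower for 9.38%, so 1 gene of 9 is not more than the background. The change was 0.12 ± 0.091 (SE) and did not pass (limma adjusted p = 0.463), with an interval of 0.938-fold to 1.26-fold. On the first slide alone, where replicate 1 of circHIPK3 siRNA meets the siGFP arrays, it was 0.046, and with division by the array median it was 0.013, so the size moved by more than 1.5 times with these settings.

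Vgf encodes a granin-like precursor of secreted peptides, named for its induction by nerve growth factor in a rat cell line. The siGFP and circHIPK3 siRNA arrays gave log2 signals of 5.18, 4.89 and 5.33 and of 5.01, 5.02 and 5.12, respectively. All 3 circHIPK3 siRNA values lay inside the siGFP range, whose SD of 0.22 (n = 3) exceeded the 0.058 (n = 3) of the other group. The change of -0.081 ± 0.13 (SE, limma adjusted p = 0.744) had an interval of 0.765-fold to 1.17-fold.

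Among the membrane proteins, Ptprn varied the most between arrays. It gave log2 signals of 1.84, 1.25 and 1.78 in the siGFP arrays and 1.59, 0.90 and 1.92 in the circHIPK3 siRNA arrays. Replicate 2 was the low array in each group, by 0.54 from the next siGFP array and by 0.69 from the next circHIPK3 siRNA array. The pooled SD within groups was 0.44, and 4.56% of all genes had a larger one, beside a median of 0.16 over all genes. The change was -0.15 ± 0.28 (SE, limma adjusted p = 0.772), and the interval of 0.575-fold to 1.41-fold leaves room for a fall of over 1.5-fold. Without circHIPK3 siRNA replicate 2 the change was 0.13, the only 1 of 20 alternative settings that turned its sign. Without circHIPK3 siRNA replicate 3 it was -0.38, so its size also moved with single arrays. Array weights gave -0.51 (limma adjusted p = 0.195). A single probe and a single spot per array stood behind these values, and no spot was flagged. Resp18, the gene next to Ptprn on chromosome 1, was likewise lowest on replicate 2 in the siGFP group, by 0.23 from the next array. The same array was the lowest of its group for 8 of the 9 genes. In the circHIPK3 siRNA group the lowest array for Resp18 was replicate 3.

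Ptprn2 was measured by 3 probes that share a transcript accession. The brightest gave log2 signals of -0.54, -0.68 and -0.62 in the siGFP arrays and -0.57, -0.59 and -0.58 in the circHIPK3 siRNA arrays. The circHIPK3 siRNA values lay inside the siGFP range and spanned 0.026. The change was 0.038 ± 0.091 (SE, limma adjusted p = 0.835), with an interval of 0.885-fold to 1.19-fold. The second probe gave 0.13 ± 0.10 (SE) and the third 0.090 ± 0.097 (SE), neither past the threshold over the 31380 probes tested, of which 1.34% passed (limma adjusted p = 0.483 and 0.618). The related genes Ptprn and Ptprn2 thus had pooled SDs of 0.44 and 0.051, each from its own probe.

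**Figure D3:**
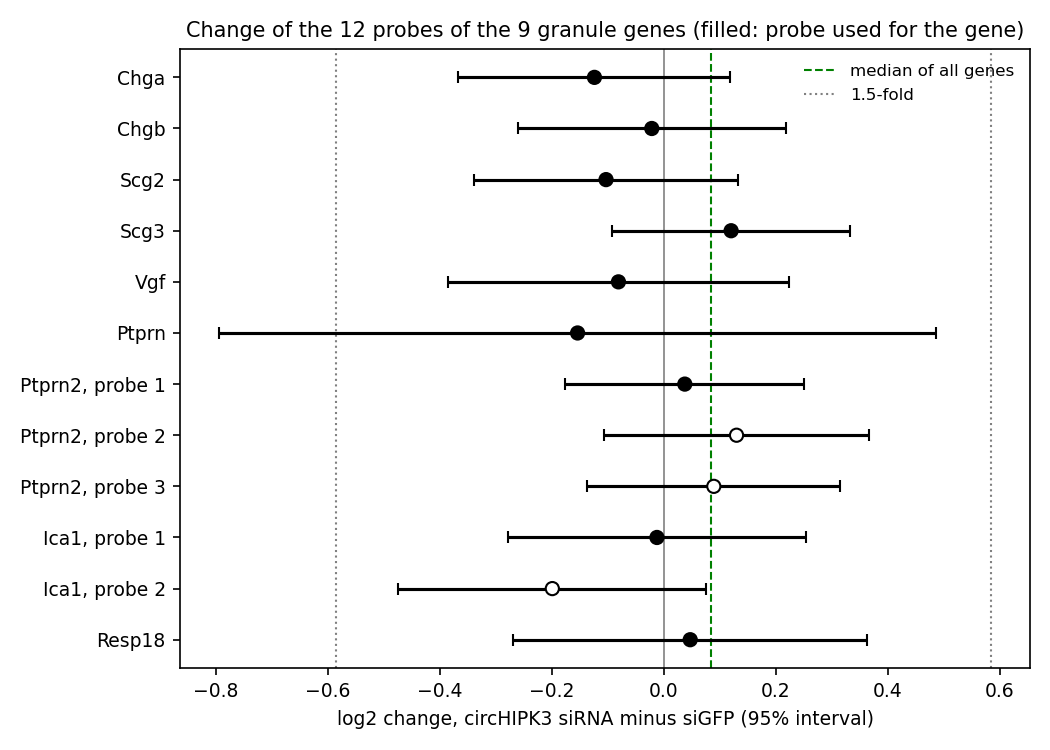
Log2 change of circHIPK3 siRNA minus siGFP (horizontal axis) with its 95% interval for the 12 probes (vertical axis; filled points are the probes that stand for a gene), beside lines at no change, at the median of all genes (0.085) and at 1.5-fold in either direction. Every interval includes 0, and only that of Ptprn crosses a 1.5-fold line.

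Ica1 was measured by 2 probes annotated to different transcripts. The brighter gave log2 signals of 2.80, 2.50 and 2.73 in the siGFP arrays and 2.58, 2.68 and 2.74 in the circHIPK3 siRNA arrays. All 3 circHIPK3 siRNA values lay inside the siGFP range. The change was -0.012 ± 0.11 (SE, limma adjusted p = 0.962), with an interval of 0.824-fold to 1.19-fold. The second probe gave 1.14, 0.93 and 0.99 in the siGFP arrays and 0.86, 0.65 and 0.95 in the circHIPK3 siRNA arrays. Its change of -0.20 ± 0.12 (SE) had the smallest adjusted p of the 12 probes and did not pass (limma adjusted p = 0.360). Whether the 2 probes differ in their change was not tested.

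Resp18 had log2 signals of 4.11, 3.83 and 4.06 in the siGFP arrays and 4.27, 3.98 and 3.90 in the circHIPK3 siRNA arrays. Replicate 1 of circHIPK3 siRNA was the highest of the 6 arrays and the other 2 lay inside the siGFP range. The change was 0.048 ± 0.14 (SE, limma adjusted p = 0.865), with an interval of 0.829-fold to 1.29-fold. With slide as a block it was 0.27 (limma adjusted p = 0.649), a fit that rests on that one circHIPK3 siRNA array against the siGFP arrays of its slide, and without that array it was -0.064.

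The 9 genes were then read array by array. In the siGFP group, replicate 2 was the lowest array for 8 of the 9 genes, all but Scg3, and all 9 genes lay below their own mean over the 6 arrays on it. The median deviation of the 9 genes on that array was -0.12, beside -0.085 over all genes and -0.039 over the 6444 brightest. Under quantile normalization the corresponding values were -0.081, -0.019 and -0.0065, and replicate 2 was the lowest siGFP array for 6 of the 9. Without siGFP replicate 2, the changes of Chga, Vgf and Ptprn were -0.18, -0.20 and -0.34. Those of Chgb, Scg2, Ica1 and Resp18 were -0.088, -0.15, -0.10 and -0.037. Scg3 and Ptprn2 were above 0, at 0.13 and 0.0041, and no gene passed. In the circHIPK3 siRNA group each array was the lowest for 3 genes.

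**Figure D4:**
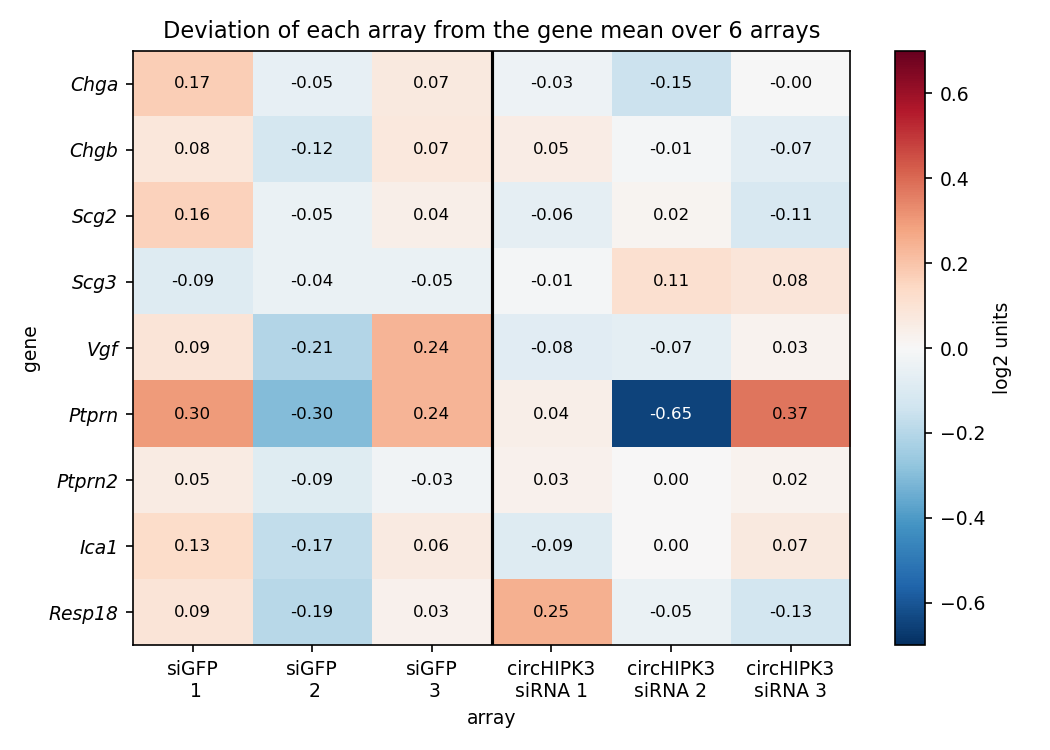
Deviation of each array (columns) from the gene's mean over the 6 arrays for the 9 genes (rows), in log2 units, siGFP arrays left of the line. The column of siGFP replicate 2 is negative throughout, and the largest single deviation is -0.65 for Ptprn on circHIPK3 siRNA replicate 2.

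The genes whose array pattern was most like that of a granule gene were found by the root mean square difference of the log2 values over the 6 arrays, after subtracting each gene's mean. For Scg3 these were Arhgap44, Zfp830 and Smarca2, at 0.018, 0.020 and 0.020, and for Chga they were Ebpl, Unc13b and Sertad3, at 0.022, 0.023 and 0.023. Ptprn was added after its values were seen, and Popdc3, Fam135b and Thsd4 were nearest to it at 0.064, 0.089 and 0.090, beside a root mean square of 0.364 for the deviations of Ptprn itself. Popdc3 deviated by -0.34 on siGFP replicate 2 and by -0.59 on circHIPK3 siRNA replicate 2, where Ptprn deviated by -0.30 and -0.65. With 6 points that share array scaling, such nearness is a description only.

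Other genes of the granule were counted from lists that were chosen with earlier results of these data known. In the list of granule cargo and prohormone processing, none of 14 tested genes passed (limma). Of these, 4 had an unadjusted p under 0.05, beside 21.1% of all genes. The median change was 0.034, beside 0.085 over all genes. The smallest p belonged to Pcsk1, the prohormone convertase that cuts proinsulin and granins. Its log2 signals were 4.48, 4.29 and 4.50 in the siGFP arrays and 4.97, 4.57 and 4.91 in the circHIPK3 siRNA arrays, a change of 0.39 ± 0.14 (SE, limma adjusted p = 0.175). All 3 circHIPK3 siRNA values were above all siGFP values, as for 16.6% of all genes, which did not carry it past the threshold.

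In the list of granule membrane and exocytosis genes, 1 of 26 fell and 25 did not pass (7 had an unadjusted p under 0.05), beside 0.64% of all genes that fell and 21.1% with an unadjusted p under 0.05. The list had a median of -0.091 beside 0.085 over all genes. The gene that fell was Cyb561, a cytochrome of the chromaffin granule membrane that carries electrons inward to regenerate ascorbate, with log2 signals of 2.95, 2.64 and 3.04 in the siGFP arrays and 2.04, 2.00 and 2.16 in the circHIPK3 siRNA arrays. All 3 circHIPK3 siRNA values lay below all siGFP values, as for 9.38% of all genes. The change was -0.81 ± 0.13 (SE, limma adjusted p = 0.0456), or 0.570-fold. The call was lost without any siGFP array or without circHIPK3 siRNA replicate 2 or 3 (limma adjusted p from 0.0842 to 0.179) and with slide as a block, where the change was -0.84 (limma adjusted p = 0.212). It is a neighbour of the 9 genes in function and not a member of the set.

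In the list of granule biogenesis genes and partners of the Ptprn and Ica1 proteins, none of 24 passed. Of these, 1 had an unadjusted p under 0.05 (limma), beside 21.1% of all genes. The median was -0.048, beside 0.085 over all genes. The smallest p was that of Ap1g1, a subunit of the clathrin adaptor that retrieves proteins from immature granules, at -0.26 ± 0.10 (SE, limma adjusted p = 0.192). In the list of transcriptional regulators of granin and granule genes, none of 18 passed. Here 2 had an unadjusted p under 0.05 (limma), beside the same 21.1%, and the median was 0.047. Creb1, which encodes a protein that binds cyclic AMP response elements, had the smallest p. Its log2 signals were -2.76, -2.70 and -2.76 in the siGFP arrays and -2.46, -2.47 and -2.39 in the circHIPK3 siRNA arrays. All 3 circHIPK3 siRNA values were the higher, as for 16.6% of all genes, and the change was 0.30 ± 0.09 (SE, limma adjusted p = 0.132). It was 0.195 with the array median, 0.21 with cyclic loess and 0.22 as a mean over the probes of Creb1. Rest, named after its value was seen, had a change of 0.31 ± 0.11 (SE, limma adjusted p = 0.177), which was 0.13 with normexp background correction and 0.029 with cyclic loess. Neither regulator passed the threshold, and the granin genes whose promoters are shown did not pass it either. Whether either regulator acts on these genes was not tested.

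**Figure D5:**
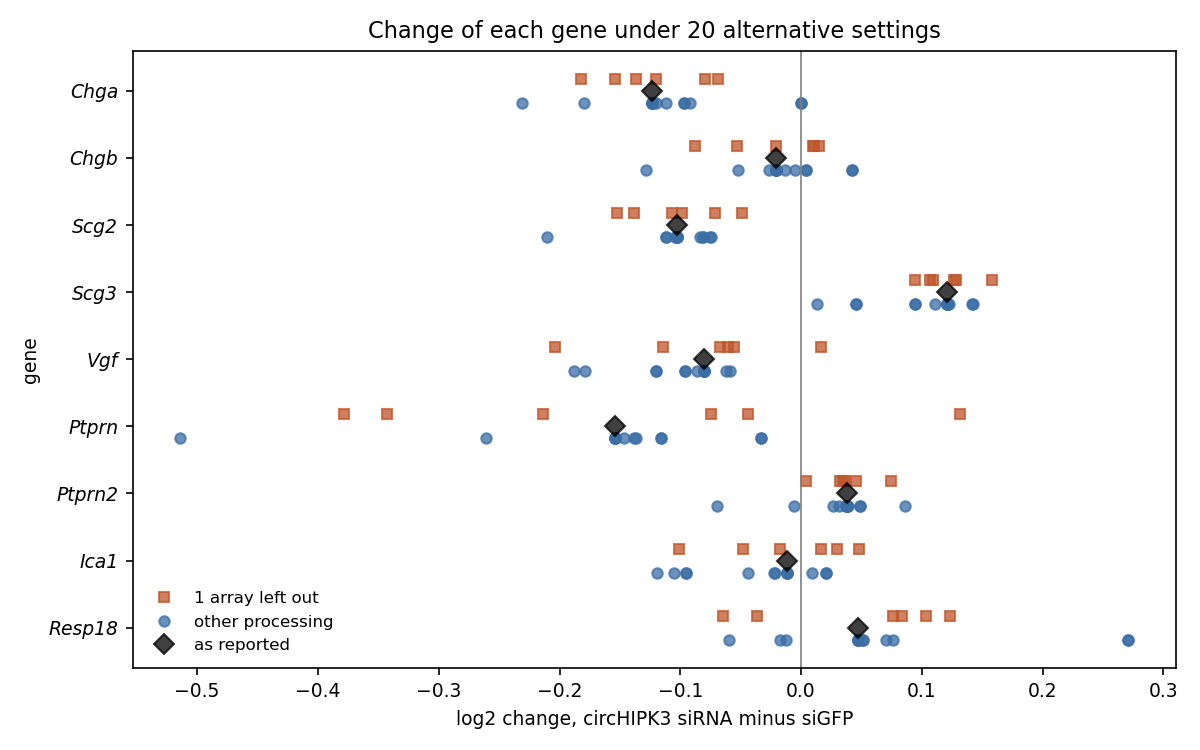
Log2 change of circHIPK3 siRNA minus siGFP (horizontal axis) of the 9 genes (vertical axis) as reported (diamonds), under 14 other processing settings (circles) and with each of the 6 arrays left out (squares). The estimates of Scg2 and Scg3 kept their sign in every setting shown, those of Chga were below 0 except for 2 settings at 0, and those of Ptprn ran from -0.51 to 0.13.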

How the data were processed

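Total RNA of 6 samples was labelled with Cy3 for single-colour Agilent arrays (protocols in the labels). Per the file headers, the authors' scanner files hold spot intensity after background subtraction, as version 11.0.1.1 of Feature Extraction wrote it. Other columns per the file headers are raw foreground and background intensity and flags (other values of 0 or 1). The authors' deposited value table holds log2 values, with a normalization that is not given in the sources used here. Column medians lie between 9.7965 and 9.7968, and each column follows its own array's log2 signal at r of 0.9999 or above. No unused sample column was present.

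Log2 processed intensity minus each array's 75th percentile was used. Flagged spots were dropped, and replicate spots averaged. Probes well above background on all 3 arrays of a group were kept (31380 of 39429), named by accession through RefSeq (GRCm38.p6, 27234 matched), and the brightest stood for each gene. The arrays were designed on another build. limma 3.58.1 in R 4.3.3 tested group over 25776 genes, with Benjamini-Hochberg adjustment, two-sided, at 0.05. The fit was tested on simulated data. The number of arrays limits the precision. All 9 genes were named, and from each list those past the threshold or else the smallest p. The nearest genes are 3 for each of the 2 members with the smallest p. Members, lists and tests were chosen with earlier results of these data known. The labels state no pairing, and none was used in the fit as reported. Deviations from the group mean correlated at -0.02, 0.27 and -0.13 between same-numbered arrays, and at -0.35 to 0.29 between the others. Values centred within groups of 3 cannot exclude pairing. Figures used matplotlib 3.10.9.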

Additional observations from a re-analysis of the deposited data

How the results depend on the processing

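None of the 9 granule genes passed under any of 20 alternatives, 14 of processing and 6 with an array left out, and none had an unadjusted p under 0.05 (limma adjusted p from 0.195 to 1.0). Of 180 values, 22 turned the sign of the estimate and 2, both of Chga, were 0. Chgb was 0.0038 with quantile normalization, 0.0039 with the value table and 0.042 with slide as a block or the first slide alone. Ica1 was 0.021 with quantile normalization and with the value table and 0.0090 with cyclic loess. Ptprn2 was -0.070 with the array median and -0.0062 with normexp, and Resp18 was -0.060 with the array median, -0.013 with normexp and -0.017 with array weights. With an array left out, the ranges were -0.088 to 0.014 for Chgb, -0.10 to 0.048 for Ica1, -0.064 to 0.12 for Resp18, -0.20 to 0.017 for Vgf and -0.38 to 0.13 for Ptprn. The cause of these turns was not tested, and each estimate was smaller than 1.5-fold. Chga was 0 with the value table and with quantile normalization, which sets the highest probe of every array to a single value. The count of all genes called was 303. It was 610 with the array median, 185 with the value table (26177 genes), 0 with no filter (5631 at an unadjusted p under 0.05), 177 with a stricter filter, 622 with trend and robust variance, 1804 with array weights, 124 with slide as a random block and 0 with slide as a fixed block or the first slide alone. It ran from 0 to 1736 with an array left out, with 1736 without circHIPK3 siRNA replicate 1, which puts the groups on separate inferred slides. With the replicate number as a block it was 0 (5133 at an unadjusted p under 0.05), and no granule gene passed. That block ended the call of Cyb561 (limma adjusted p = 0.0864). Its 20 values lay from -0.93 to -0.73, with 10 past the threshold. The split was 42 higher and 202 lower with quantile normalization, 98 and 319 with cyclic loess, 38 and 241 with normexp, 200 and 410 with the array median, and 138 and 165 as reported. Normexp was run on the median foreground.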
